A study of Mus musculus with 2 samples.

Results

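Lcn2 (ENSMUSG00000026822) encodes lipocalin-2, also called neutrophil gelatinase-associated lipocalin or NGAL, and was selected by its symbol as 1 gene of the 32285 in the feature table. Its transcripts were followed through the segments of the nephron in 12586 cells of a control kidney and 13116 cells of an ischemic kidney. A Lcn2 transcript was counted in 1685 cells (13.4%) of the control library and in 7369 cells (56.2%) of the ischemia library. Both libraries were made from whole kidneys of wildtype male C57BL/6J mice of 19 weeks by droplet-based single cell RNA sequencing, which counts transcripts by unique molecular identifiers (UMIs) near their 3' end. The ischemia library came from a left kidney that had its blood supply blocked for 27 min and was then reperfused for 24 h. The control library came from an uninjured kidney of the opposite side. It is therefore not a kidney of an untouched mouse, and the labels do not say whether both kidneys came from the same animal. There was 1 library per condition. Differences between the libraries therefore have no replicate check and no test, and all intervals given below are 95% intervals that cover counting error only.

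Lipocalin-2 is a secreted protein that binds bacterial siderophores and so withholds iron from bacteria. It is stored in neutrophil granules, and it is made by epithelia in response to NF-kB, C/EBP and STAT3 signalling. In the injured kidney it appears in urine and blood, where it is used as a marker of acute kidney injury. Lipocalin-2 that passes the glomerular filter is taken up by the proximal tubule through the receptor megalin (Lrp2), so that protein in a segment need not have been made there. Transcript counts speak only of where the mRNA was found.

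Lcn2 lies on the minus strand of mouse chromosome 2 (GRCm38, chr2:32384633-32388252), and no other annotated gene overlaps it. The nearest gene, 1110008P14Rik, ends 2695 bases away. The main protein-coding transcript has 6 exons and starts at base 32387797. Another protein-coding transcript starts farther upstream, and the 53 bases between its nearest upstream exon and the start of the main transcript are intergenic for one and intronic for the other. They are shown because Lcn2 is known as an NF-kB target, with the letters that match an NF-kB-type motif in capitals (RefSeq promoter table, GRCm38.p6, chr2:32387798-32387850, minus strand, 5′ to 3′).
Lcn2: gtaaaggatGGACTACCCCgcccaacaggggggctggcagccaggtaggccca
The motif is GGG and CC with 5 bases of any kind between them, it is read here on the opposite strand, and the match lies 35 to 44 bases upstream of the start of the main transcript. The same motif on either strand was present in 13.9% of 32851 promoters in windows of the same length, so that the match is a common one. No match was found to the C/EBP-type motif TTNNGNAA, the STAT-type motifs of TTC and GAA with 3 or 4 bases of any kind between them or the AP-1 motif TGANTCA. That says only that these letters are not in this window.

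The libraries held 15110 and 15257 barcodes before the filters on cells, and the median cell that passed had 3839 UMIs in control and 2138 in ischemia. 88 barcode sequences occurred in both libraries, 58 of them among the cells that passed. Clustering without Lcn2 and the genes of the lists used here gave 19 clusters, of which 17 were named from marker genes. They make up 13 populations, 6 of them nephron epithelium: proximal tubule-like (PT), thin limb-like, thick ascending limb-like (TAL), distal convoluted and connecting tubule-like (DCT-CNT), collecting duct principal cell-like (CD-PC) and intercalated cell-like (IC). The names rest on rebuilt clusters, and each nephron cluster led with its own markers, such as Slc5a12 (PT), Slc12a1 and Umod (TAL), Slc12a3 (DCT-CNT), Aqp2 (CD-PC) and Slc26a4 (IC). The IC cluster led with type B genes, while Aqp6, a type A gene, was among the leading genes of the CD-PC cluster. 2 clusters had no name. The larger held 11074 cells with a median of 846 UMIs, and the other 1583 cells carried both TAL and DCT-CNT markers.

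In the ischemic kidney, Lcn2 transcripts were concentrated in the distal nephron and not in the proximal tubule. The TAL, DCT-CNT and CD-PC clusters together made up 9.42% of the cells of the ischemia library and held 84.3% of its Lcn2 UMIs, at 4715 CPM (the UMIs of a gene, summed over cells and scaled to 1e+06 UMIs). In the control library they made up 11.3% of cells and held 80.9% of Lcn2 UMIs, at 443 CPM. The distal nephron thus held most of the transcript in both kidneys. Such shares depend on how many cells of each segment were captured. PT, the most numerous named population, held 2.75% of Lcn2 UMIs in control and 1.83% in ischemia. The larger unnamed cluster held 3.13% and 2.52%, at 67.2 and 634 CPM. That was 0.0986 and 0.720 Lcn2 UMIs per cell, at median depths of 906 and 802 UMIs. Of its cells, 1570 and 1910 carried PT markers and had 40.7 and 541 CPM, so that the PT clusters may not hold all PT cells. How much of this Lcn2 was free RNA was not tested.

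**Figure D1:**
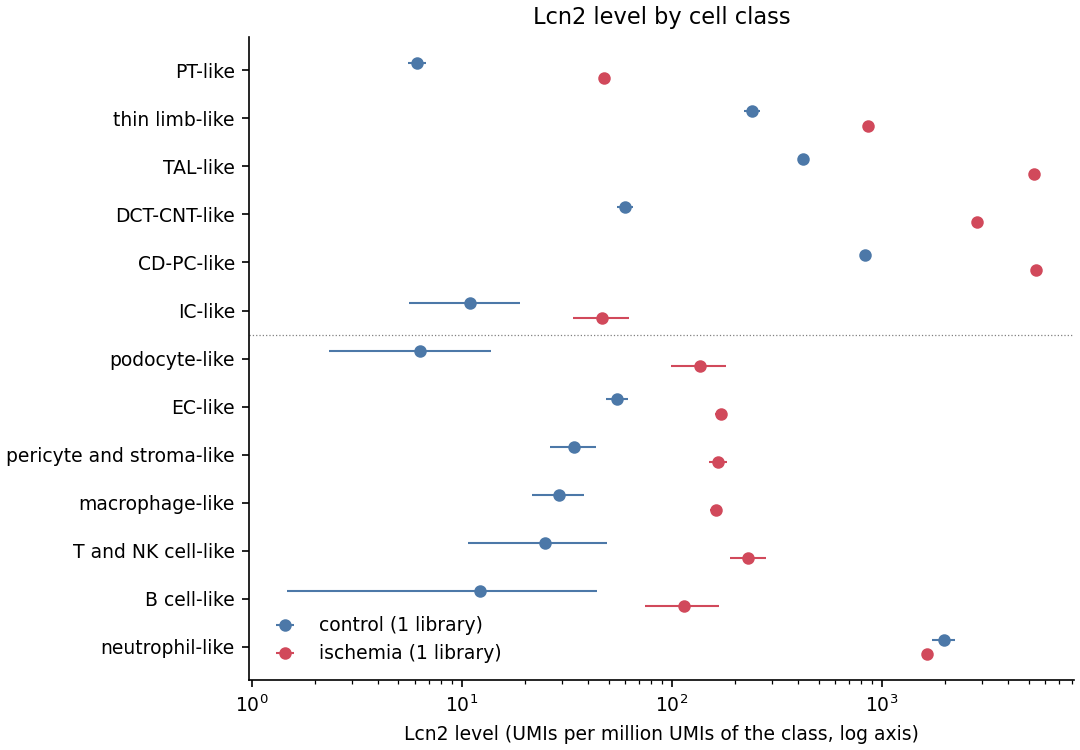
Lcn2 level in each cell population of the control and ischemia libraries (CPM, log axis), as summed UMIs with 95% Poisson intervals that cover counting error only. CD-PC, TAL and DCT-CNT stand highest in ischemia at 5390, 5275 and 2850 CPM, while PT and IC lie lowest at 47.5 and 46.7 CPM.

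The TAL reabsorbs salt and makes uromodulin. Its Lcn2 level was 423 CPM (411 to 436) in control and 5275 CPM (5235 to 5315) in ischemia, 12.5-fold higher (interval 12.1 to 12.9). A TAL cell held on average 8.85 Lcn2 UMIs in control and 136.5 in ischemia. The TAL held 27.8% of all Lcn2 UMIs in the control kidney and 38.1% in the ischemic kidney. These shares moved with the limit on mitochondrial UMIs. At no more than 25% the TAL held 10.6% and 27.6%, and the CD-PC cluster held 68.7% and 48.4%, so that the order of the clusters in ischemia turned.

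The DCT-CNT cluster covers the segments where thiazide-sensitive salt transport and calcium uptake take place. Its level was 60.1 CPM in control and 2850 CPM in ischemia, and the ratio of 47.4 (43.5 to 51.7) was the highest of the 13 populations. It held 3.45% of Lcn2 UMIs in control and 12.6% in ischemia. The control value rested on few cells. Of its 542 UMIs, 468 (86.3%) came from 5 of 471 cells, and the other cells together had 8.30 CPM. The cell with the most, 305 UMIs, also held 203 UMIs of TAL markers beside 126 of DCT-CNT markers. Of these TAL marker UMIs 181 were Umod and 0 were Slc12a1. Umod was also counted across the control cells of this cluster, at 24.0 UMIs per cell. Whether this droplet held RNA of more than 1 cell was not tested. Without the 1% of cells with the most Lcn2 in each library the ratio was 310. Without integration of the libraries it was 10.3, below that of the TAL (13.5) and IC (16.5). The control level of the cluster was then 431 CPM and CD-PC had no cluster, so that it may not hold the same cells. At resolution 0.6 the ratio was 45.7 in DCT-CNT and 48.1 in IC. The place of DCT-CNT as the highest thus depends on the clustering.

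Principal cells reabsorb water and sodium under vasopressin and aldosterone. The CD-PC cluster, in which 187 of 844 cells passed the principal cell marker set used below, is a mixture and not principal cells alone. Its level was 835 CPM in control and 5390 CPM (5347 to 5434) in ischemia, a ratio of 6.45 (6.30 to 6.61). The cluster held 49.7% of the Lcn2 UMIs of the control kidney and 33.6% of those of the ischemic kidney. The share of the CD-PC cluster was therefore lower and that of the TAL higher in the ischemia library, although the level was higher in both clusters. By summed counts CD-PC stood above the TAL in ischemia, but by the mean of each cell's CPM it was 3736 against 4664 CPM, in thinned cells 3830 against 4553 CPM, without the 1% of cells with the most Lcn2 4371 against 5075 CPM, and without the highest doublet scores 5351 against 5394 CPM.

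Thin limb-like cells had 242 CPM in control and 861 CPM in ischemia, 3.56-fold higher (3.23 to 3.94). Of the 468 control UMIs, 228 (48.7%) came from 1 of 100 cells, and the other cells together had 127 CPM. Without the 1% of cells with the most Lcn2 in each library the thin limb ratio was 5.74, outside this interval. PT cells had 6.15 CPM (5.58 to 6.75) and 47.5 CPM (45.8 to 49.2), a ratio of 7.73 (6.98 to 8.56). The type B-like IC cells, which secrete bicarbonate, had 10.9 and 46.7 CPM on 12 and 44 UMIs, a ratio of 4.28 with a wide interval of 2.22 to 8.91 that spans the ratio of the thin limb.

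Outside the nephron, neutrophils carried the most Lcn2. Their level was 1973 CPM in 19 control cells and 1634 CPM in 190 ischemia cells, and the ratio of 0.828 (0.722 to 0.954) was the only one below 1. Endothelial-like cells had 54.8 and 171 CPM, pericyte and stroma-like cells 34.1 and 166 CPM, and macrophage-like cells 29.0 and 163 CPM. Podocyte-like, T and NK cell-like and B cell-like cells, which are not known to make Lcn2 in quantity, had 6.35, 24.97 and 12.2 CPM in control and 136, 231 and 114 CPM in ischemia.

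In the control library the populations were ordered as neutrophil, CD-PC, TAL, thin limb, DCT-CNT, endothelial, pericyte, macrophage, T and NK, B, IC, podocyte and PT. The intervals of DCT-CNT and endothelial cells overlapped, as did those of each pair of neighbours from pericytes down. In the ischemia library the order was CD-PC, TAL, DCT-CNT, neutrophil, thin limb, T and NK, endothelial, pericyte, macrophage, podocyte, B, PT and IC. There the intervals of neighbours overlapped from endothelial cells down to B cells and between PT and IC. DCT-CNT had moved from below the thin limb to above the neutrophils.

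Free RNA in the cell suspension adds UMIs to every droplet, and a large amount of Lcn2 in some cells can therefore appear in others. The podocyte, T and NK and B cell-like populations served jointly as the background. They had 0.0696 Lcn2 UMIs per cell in control and 0.767 in ischemia, at median depths of 3218 and 3266 UMIs. PT cells had 0.124 and 1.23 Lcn2 UMIs per cell at median depths of 16518 and 21295 UMIs. Umod, which the TAL makes, was set beside Lcn2 as another reading of free RNA. Free RNA of one source keeps its genes in a fixed ratio. Lcn2 was also high outside the TAL, so that this ratio does not decide how much Lcn2 was free RNA. In the ischemia library there were 1.49 Lcn2 UMIs per Umod UMI in the background populations, 1.42 in PT and 1.52 in the large unnamed cluster. The ratio was 24.3 in CD-PC, 14.8 in thin limb cells, 1.81 in DCT-CNT and 0.634 in the TAL. It was 0.0350 in IC, 0.444 in pericytes, 1.74 in endothelial cells, 2.24 in macrophages and 8.27 in neutrophils. DCT-CNT cells, whose ratio was also near that of the background, had 60.7 Lcn2 UMIs per cell, far above the 0.767 of the background. PT thus carried Lcn2 and Umod in almost the ratio of the background, at 1.23 against 0.767 Lcn2 UMIs per cell.

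The share of cells with a Lcn2 UMI depends on depth, so each cell was also thinned to 1000 UMIs. Free RNA adds a similar number of UMIs to deep and shallow droplets, and thinning keeps fewer of them in a deep cell, so that a deep population can fall below the background by this step alone. After thinning, 3.62% of the background cells in control and 21.0% (15.8 to 27.1%) in ischemia had a Lcn2 UMI. In the TAL 18.3% and 80.8% of thinned cells were positive, against 63.0% and 95.3% unthinned. In DCT-CNT the thinned share was 1.93% in control and 49.4% in ischemia (11.04% and 80.3% unthinned). In the CD-PC cluster it was 17.7% and 45.1% (41.5% and 81.0% unthinned), and in thin limb cells 10% and 39.8% (33% and 88.3% unthinned). These segments lay above the background in the ischemic kidney.

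In PT, 7.92% of cells in control and 51.7% in ischemia had a Lcn2 UMI unthinned, and 0.694% and 7.33% after thinning. In ischemia the thinned shares were 10.9% for IC, 20.2% for endothelial cells, 15.5% for pericytes and 13.8% for macrophages, none of them above the background. Per cell, without thinning, there were 1.23 Lcn2 UMIs in PT, 0.957 in IC, 1.10 in endothelial cells, 1.38 in pericytes and 1.52 in macrophages against 0.767 in the background. Single cells stood out, with up to 379 Lcn2 UMIs in a PT cell, 123 in a pericyte and stroma-like cell and 74 in a macrophage-like cell, while no background cell had more than 16. How much of the Lcn2 of these populations was free RNA was not tested. Neutrophils had thinned shares of 78.9% and 61.7%.

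**Figure D2:**
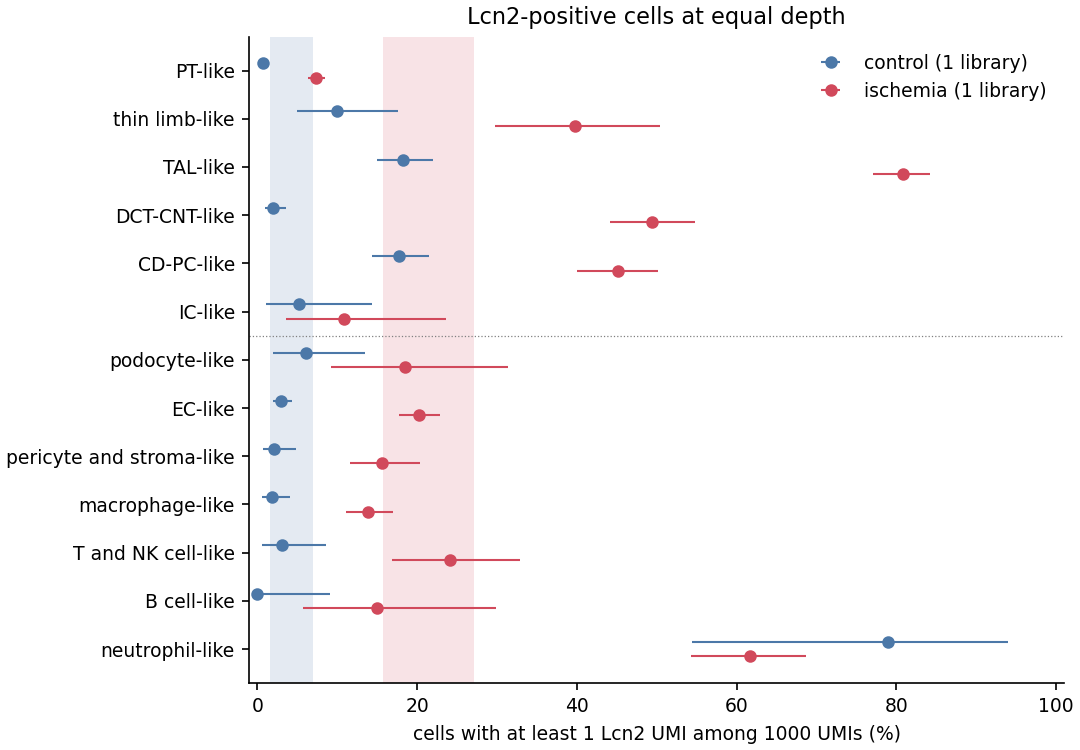
Share of cells with a Lcn2 UMI after each cell was thinned to 1000 UMIs, by population and library (percent, with 95% Clopper-Pearson intervals that cover counting error only), with the interval of the background in each library as a shaded band, from podocyte, T and NK and B cell-like cells. In ischemia TAL (80.8%), DCT-CNT (49.4%), CD-PC (45.1%) and thin limb (39.8%) lie above the background of 21.0%, while PT (7.33%), whose cells are deeper than the background cells, does not.

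Neutrophils are the other known source of lipocalin-2, and their RNA was checked in the nephron cells through S100a8 and S100a9, the alarmins that make up much of the neutrophil transcriptome. In neutrophils of the ischemia library there were 0.0183 Lcn2 UMIs per S100a8 and S100a9 UMI. The same quotient was 314 in the TAL, 421 in DCT-CNT, 151 in thin limb cells and 56.9 in CD-PC. In the 424 TAL cells with no S100a8 or S100a9 UMI the Lcn2 level was 5152 CPM. It was 2864 CPM in such DCT-CNT cells and 4714 CPM in such CD-PC cells. Cells with 1 or 2 of these UMIs had 6001 CPM in the TAL, 2766 CPM in DCT-CNT and 8200 CPM in CD-PC. In CD-PC and the TAL the cells with 1 or 2 of these UMIs thus had the higher level, as in thin limb cells (1140 against 813 CPM). In DCT-CNT the intervals overlapped. PT (31.9 against 50.3 CPM) and IC (14.2 against 56.1 CPM, on 3 UMIs) went the other way. The part of neutrophil RNA in these differences was not tested. 2 CD-PC cells held 981 of the 1028 S100a8 and S100a9 UMIs of that cluster, and they contributed 250 of its 58459 Lcn2 UMIs. Of the 10 neutrophil granule genes listed, such as Ltf, Camp and Ngp, 0 reached 50 UMIs in TAL, DCT-CNT, CD-PC, thin limb or IC cells. The neutrophils of the ischemia library themselves held only 10 Ltf, 0 Camp and 13 Ngp UMIs. A count below 50 for Ltf, Camp and Ngp therefore says little about neutrophil RNA in the nephron cells. Mmp9, also on the list, had 634 UMIs (741 CPM) in these neutrophils. In the same library it had 8 UMIs in the TAL, 0 in DCT-CNT, 4 in CD-PC, 0 in thin limb and 1 in IC cells.

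The spread of Lcn2 among the cells of a segment differed between segments. In the ischemic TAL the median cell had 3995 CPM, and the middle 50% of cells lay between 1460 and 6666 CPM. After thinning, 214 of 485 TAL cells (44.1%) had at least 5 Lcn2 UMIs. In the control TAL the median cell had 68.8 CPM. The higher level of the TAL was therefore seen across most of its cells.

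In the CD-PC cluster the median cell of the ischemia library had only 357 CPM, and the highest had 41955 CPM. The 10% of cells with the most Lcn2, 39 cells, held 69.5% of its Lcn2 UMIs, and 1 cell alone had 5548. In DCT-CNT the median cell had 579 CPM, and the 10% with the most held 59.3%. In PT 26 cells, 1% of all, held 35.0% of the Lcn2 UMIs, and in the thin limb 1 cell held 18.9%. In the TAL the 10% of cells with the most held 33.5%.

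**Figure D3:**
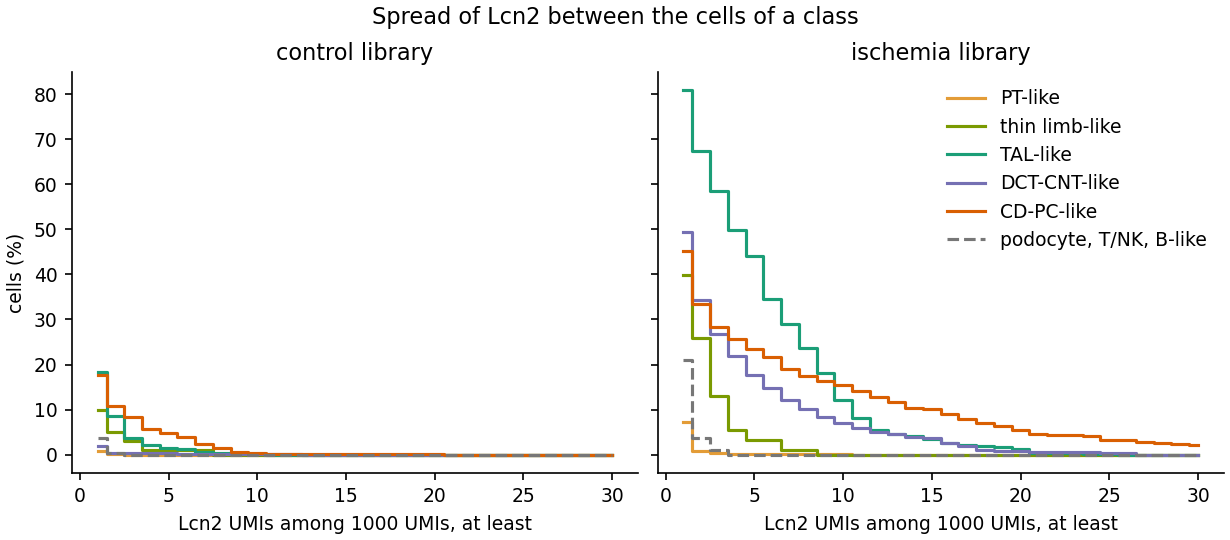
Share of cells (percent) that had at least a given number of Lcn2 UMIs after each cell was thinned to 1000 UMIs, for 5 nephron populations and the background of podocyte, T and NK and B cell-like cells, control library on the left and ischemia library on the right. In ischemia 44.1% of TAL cells had at least 5 UMIs, and the CD-PC line falls most slowly towards high counts.

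The CD-PC cluster was a mixture, and its cells were split by the markers they carried, a division chosen after the values had been seen. Cells with CD-PC markers, 103 in control and 84 in ischemia, had 2838 and 13733 CPM, a ratio of 4.84 (4.71 to 4.97). Of these, 89 of 103 and 84 of 84 had a Lcn2 UMI, and the thinned shares were 54.4% and 98.8%. These few principal-like cells held 40.8% of all Lcn2 UMIs of the control kidney and 22.6% of those of the ischemic kidney. Cells of the same cluster with DCT-CNT markers were more numerous, 183 in control and 156 in ischemia, and had 27.5 and 468 CPM. Those with IC markers had 22.3 and 1633 CPM, but 5 of the 44 ischemia cells held 93.7% of that. The cells that no marker set could place, 98 in control and 96 in ischemia, had 530 and 6097 CPM. They held 8.71% of the Lcn2 UMIs of the ischemic kidney.

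The type A intercalated cells, which secrete acid, formed a cluster of their own only at a finer resolution. There, 99 control and 88 ischemia cells had 13.8 and 978 CPM, and 5 cells held 88.9% of the 1314 UMIs in the ischemia library. The median type A cell of the ischemia library had 97.7 CPM, and 21.8% of thinned cells were positive, beside 21.0% in the background. Without these cells the CD-PC cluster had 943 and 6014 CPM, with a ratio of 6.38.

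Lcn2 was found in both kinds of TAL cell. Cells marked by Cldn10, a claudin of sodium-selective junctions, had 427 CPM in control and 5459 CPM in ischemia, a ratio of 12.8 (12.2 to 13.4). Cells marked by Cldn16 and Cldn19, which form the path for magnesium and calcium, had 438 and 5104 CPM, a ratio of 11.6 (10.96 to 12.4). The intervals of the ratios overlapped, while those of the ischemia levels did not (5382 to 5538 and 5034 to 5175 CPM). All 131 cells of the Cldn16 and Cldn19 kind in the ischemia library had a Lcn2 UMI. TAL cells that could not be placed in either kind, 158 in control and 242 in ischemia, had 404 and 5282 CPM. In ischemia 72.3% of them were positive after thinning, beside 90.2% of the Cldn10 kind and 88.5% of the other.

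Within DCT-CNT, cells with distal convoluted tubule markers had 81.9 and 3567 CPM, a ratio of 43.5, and cells with connecting tubule markers had 7.88 and 571 CPM, a ratio of 72.5 (45.6 to 123). In the ischemia library the median cell had 1020 CPM in the distal convoluted part and 64.8 CPM in the connecting part, where 5 cells held 79.5% of the UMIs. The distal convoluted cells thus carried most of the Lcn2 of this cluster. Of the control UMIs in distal convoluted cells, 5 cells held 91.6%.

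Among PT cells, those with markers of the early segments had 6.40 and 44.2 CPM. Those with markers of the late segment, the part most exposed to ischemic injury, numbered 41 and 16, with 83.6 CPM in the ischemia library and a count of 0 in the control, which allows up to 3 UMIs. A PT cluster of 1316 cells had Slc7a13, a late marker of this rule, among its leading genes. It held 758 control and 558 ischemia cells, more than the late cells and the 365 and 271 cells with neither set together. The rule therefore counted part of that cluster as early, and the early values may include late cells. How many of them were late cells was not tested. PT cells with neither set of markers had 4.19 and 117 CPM, a ratio of 27.99 (18.5 to 44.3). In ischemia they had 1.26 Lcn2 UMIs per cell at a median depth of 4419 UMIs, beside 1.23 at 25284 in early cells. Per cell the ratio was 19.2, beside 9.33 in early cells. Late cells of the ischemia library had 12 Lcn2 UMIs, 0.75 per cell at 3628 UMIs, beside 0.767 in the background. The part of depth and free RNA in these levels was not tested. The 4 PT clusters lay between 4.04 and 11.2 CPM in control and between 41.7 and 106 CPM in ischemia. In ischemia none approached the TAL, DCT-CNT or CD-PC clusters. In control the highest lay above the cells with connecting tubule markers, at 7.88 CPM.

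The unnamed cluster with TAL and DCT-CNT markers had 184 and 3634 CPM, a ratio of 19.7. At finer resolution it separated into TAL-like cells with 344 and 5481 CPM (ratio 16.0) and DCT-CNT-like cells with 56.1 and 2065 CPM (ratio 36.8). These shallower cells, which took no part in the named populations, thus had levels near those of the named segments.

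**Figure D4:**
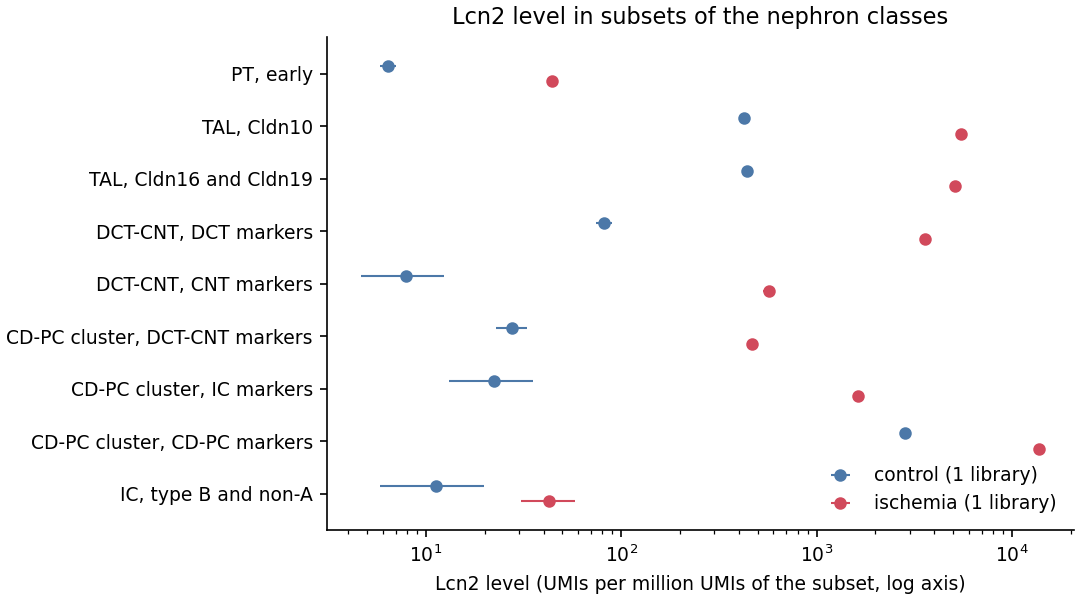
Lcn2 level in subsets of the nephron populations in the control and ischemia libraries (CPM, log axis, with 95% Poisson intervals that cover counting error only). The cells with CD-PC markers lie highest in both libraries at 2838 and 13733 CPM, and both TAL subsets lie close together.

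Havcr1 encodes kidney injury molecule-1, a marker of injured proximal tubule, and its distribution differed from that of Lcn2. In PT it was 7.04 CPM in control and 420 CPM in ischemia, and in thin limb cells 0.516 and 265 CPM. In ischemic TAL, DCT-CNT and CD-PC it was 34.2, 23.9 and 21.2 CPM. Per cell that was 0.885, 0.510 and 0.591 Havcr1 UMIs, beside 0.405 in the background populations and 10.9 in PT. The segments with the most Lcn2 thus had little Havcr1, and how much of it was free RNA was not tested.

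Among thinned PT cells of the ischemia library, the 590 with a Havcr1 UMI had 96.6 Lcn2 CPM and the 1962 without had 88.7 CPM. The intervals overlapped, so that no difference was detectable at this depth, and the free RNA in both values was not taken out.

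**Figure D5:**
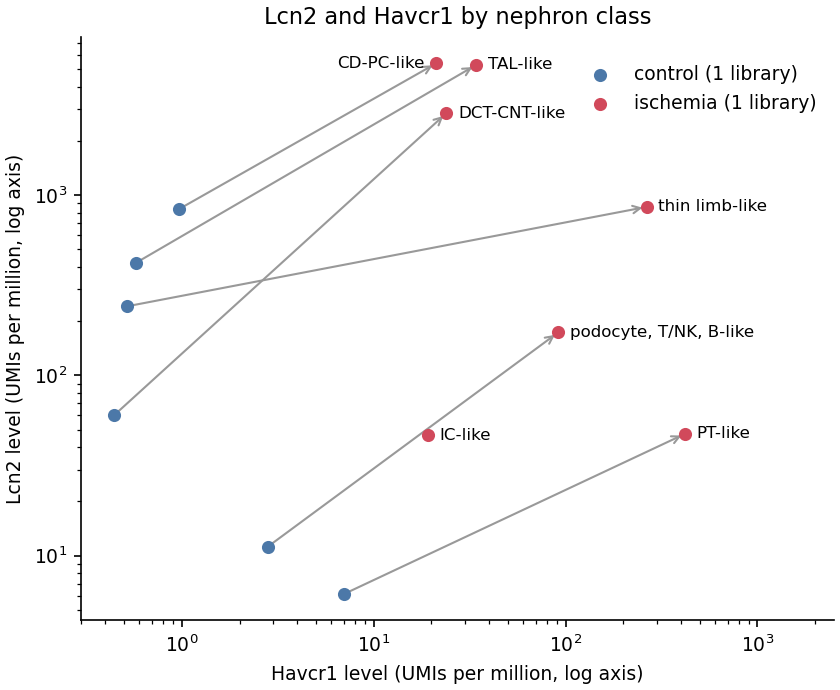
Lcn2 level against Havcr1 level (CPM, log axes), with an arrow from the control to the ischemia point of each nephron population and of the background of podocyte, T and NK and B cell-like cells (IC has no control point, since its Havcr1 count there was 0). PT lies at 420 Havcr1 CPM and 47.5 Lcn2 CPM in ischemia, and TAL, DCT-CNT and CD-PC lie at high Lcn2 with Havcr1 between 21.2 and 34.2 CPM.

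Cells with many mitochondrial UMIs are common in kidney and can be damaged cells. In the ischemic CD-PC cluster Lcn2 was 11732 CPM in cells with under 10% mitochondrial UMIs, 1981 CPM from 10 to under 25%, and 461 CPM from 25 to 55%. The control cells of this cluster had 3003, 692 and 305 CPM in the same bins. In the ischemic TAL the order was different, with 2439, 5427 and 5230 CPM, and in DCT-CNT it was 658, 4084 and 2183 CPM. PT had 125, 46.5 and 37.4 CPM. The bins also differed in depth. In ischemia the bin under 10% held 31 TAL cells at a median of 2874 UMIs, beside 25465.5 and 25449 in the other bins. It held 54 DCT-CNT cells at 3019 UMIs beside 22650 and 25472, and 500 PT cells at 4073 beside 39905 and 19660. In CD-PC the medians were 24747.5, 21967 and 12041 UMIs. The parts that the mitochondrial share, depth and free RNA play in these levels were not tested.

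Set against all genes of the same population, Lcn2 stood near the top. The ratio with a pseudocount of 10 CPM was used for all genes with at least 50 UMIs in a population, and a ratio of at least 4 was called. The pseudocount draws the ratios of genes near or below 10 CPM towards 1, and the ratios of the gene lists below carry it too. In DCT-CNT, where 0.376% of 10651 genes were called, Lcn2 had the highest ratio (40.8). In the TAL, where 0.374% of 11233 genes were called, it was number 2 (12.2), after Clu (21.9), which encodes the chaperone clusterin. In the CD-PC cluster, where 0.18% of 11691 genes were called, it was number 6 (6.39). In PT it was number 26 of 13498 with a ratio of 3.56, below the threshold that 0.141% of genes passed. In the thin limb it was number 36 (3.46) and in IC number 83 (2.71), where 0.254% and 0.771% of genes were called. The median ratio of all genes lay between 0.991 and 1.04 in the 6 populations.

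Genes of the Lcn2 pathway were described in the TAL, the nephron population with the most Lcn2 UMIs in ischemia. Of 13 genes for signals upstream of Lcn2, 10 were measured, and 0 had a ratio of at least 4, beside 0.374% of all genes. The median was 1.47 beside 1.04 for all genes. The transcription factors Cebpd and Cebpb had the highest ratios. Cebpd had 22.3 and 94.4 CPM (ratio 3.23), and Cebpb 14.6 and 52.3 CPM (ratio 2.53). Il17ra, a receptor for interleukin-17 (4.84 and 6.85 CPM, below the pseudocount), and Stat3 had the lowest, at 1.14 and 1.11.

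Of 10 feedback and target genes of NF-kB and STAT3, 8 were measured in the TAL, with a median of 1.74 beside 1.04 for all genes. Beside 0.374% of all genes, 1 of the 8 passed a ratio of 4. That was Nfkbia, the NF-kB inhibitor that NF-kB itself induces, with 18.7 and 110 CPM (ratio 4.20). Cxcl2, a neutrophil chemokine, had 0.0968 and 19.8 CPM (ratio 2.95 with the pseudocount, which weighs heavily on so low a control level). Tnfaip3 and Zc3h12a, which damp NF-kB signalling and inflammatory mRNAs, had the lowest ratios with the pseudocount, 1.32 and 1.19. Their levels were 1.06 and 4.62 CPM for Tnfaip3 and 3.87 and 6.45 CPM for Zc3h12a, so that these ratios do not show a small change.

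Of 12 tubule injury genes, 9 were measured in the TAL, 4 had a ratio of at least 4, and the median was 3.25. Clu had 290 and 6577 CPM, and Timp1, an inhibitor of matrix metalloproteinases, 0.871 and 100.5 CPM (ratio 10.2). Cp, which encodes the ferroxidase ceruloplasmin, and the keratin gene Krt19 had the lowest ratios with the pseudocount, 1.44 and 1.39. Their levels were 0.484 and 5.10 CPM for Cp and 0.581 and 4.70 CPM for Krt19, so that these ratios do not show a small change. In DCT-CNT 6 of 8 measured injury genes had a ratio of at least 4 (median 4.31), in CD-PC 3 of 10 (median 2.81), and in PT 3 of 11 (median 2.02). Over all genes the share was 0.374% in the TAL, 0.376% in DCT-CNT, 0.18% in CD-PC and 0.141% in PT.

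Uptake and iron handling genes showed no such upward shift. All 10 were measured in the TAL, and 0 had a ratio of at least 4, beside 0.374% of all genes. The median was 0.847 beside 1.04 for all genes. Fth1, the ferritin heavy chain, had a ratio of 2.76 and Slc40a1, the iron exporter ferroportin, 2.24. Tfrc, the transferrin receptor (0.266), and Lrp2 (0.375) had the lowest ratios. The Lrp2 level of the TAL, 122 and 39.7 CPM, was below that of podocyte-like cells, 218 and 81.4 CPM, and how much of it was free RNA from PT was not tested.

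Of the receptor genes for lipocalin-2, Lrp2 and Cubn followed another distribution than Lcn2 itself. Lrp2 was highest in PT, with 1356 CPM in control and 634 CPM in ischemia. Cubn, which encodes the megalin partner cubilin, had 307 and 165 CPM there. Slc22a17, proposed as a lipocalin-2 receptor of the distal nephron, had 24.1 and 12.3 CPM in the CD-PC cluster, 14.6 and 3.58 CPM in the TAL, and 6.36 and 12.7 CPM in IC, on 7 and 12 UMIs. It was highest in CD-PC in the control library, while in ischemia CD-PC and IC had overlapping intervals. In control, thin limb cells had 9.81, DCT-CNT 8.99 and PT 5.79 CPM of Slc22a17. The nephron populations thus stood in the same order as for Lcn2, with overlapping intervals between neighbours from the TAL down. In ischemia the TAL did not stand above PT, which had 4.75 CPM.

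The genes most like Lcn2 were found by Pearson's r of log2(CPM + 10) over 26 points, the 13 populations in both libraries, among 12479 genes. The points share 2 libraries and differ in depth, so r is a description. Mapk13, a p38 kinase, came first (r = 0.813), followed by Adgrg3, an adhesion receptor of neutrophils (0.790), and Cd24a, a surface glycoprotein of distal epithelium (0.740). Ampd3 (0.705), Calml3 (0.698), Ctxn1 (0.691) and Lif, a cytokine of the interleukin-6 family (0.691), were also among the 8. Without the neutrophils 5 of the 8 remained, and with a pseudocount of 1 CPM 6 of the 8 did. Calml3 and Ctxn1 lay near or below the 10 CPM added, with 2.23 and 9.24 CPM and 2.23 and 16.2 CPM in the TAL. Their r therefore leans on the pseudocount, and with 1 CPM Ctxn1 was number 37. Lif had 0.581 and 38.1 CPM in the TAL and 0.998 and 29.0 CPM in DCT-CNT.

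Within the ischemic segments, thinned cells with at least 5 Lcn2 UMIs were compared with those that had 0, a description chosen after the values had been seen. In the TAL, 214 such cells against 93 had 2.74-fold the Umod, 3.04-fold the Clu and 2.45-fold the Spp1 level, but 0.644-fold the Slc12a1 and 0.483-fold the Krt8 level. In DCT-CNT, 63 against 180 cells had 2.11-fold the Clu and 2.10-fold the Spp1 level, but 0.701-fold the Slc12a3 and 0.333-fold the Calb1 level. Trpm6, also a marker of this cluster, was at 0.973-fold (0.515 to 1.75), and Krt8 was higher, at 1.68-fold (1.06 to 2.63). In the CD-PC cluster without type A cells, 89 against 145 cells had 5.75-fold the Fxyd4, 3.16-fold the Aqp2, 2.50-fold the Krt18 and 2.23-fold the Krt8 level. Hsd11b2, also a principal cell marker, was at 0.959-fold, so that not all of these markers went with Lcn2. Clu was at 1.08-fold there. The median mitochondrial share of these CD-PC cells was 7.83% against 18.4%, and its part in this difference was not tested. Before thinning, the median depth was 27284 against 13865 UMIs in the TAL, 26728 against 19208.5 in DCT-CNT and 26992 against 22519 in CD-PC. The part of depth, and of free RNA in the shallower cells, was not tested.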

How the data were processed

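Kidneys were dissociated to single cells and sequenced by the 10x 3' protocol. The authors deposited raw UMI counts per gene and barcode, 1 matrix per library, made with Cell Ranger 7.0.0 and mm10 per the submitters' processing notes. The counts were not normalized, and 32285 genes were listed. From these counts, cells were dropped below 200 genes, below 500 or above 150000 UMIs, or above 55% mitochondrial UMIs, the limits of the study's methods, which left 12586 of 15110 and 13116 of 15257 barcodes (the cell numbers of the study's methods are the same).

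Cells were clustered in Seurat 5.3.0 (R 4.3.3) with 2000 variable genes, anchor integration, 30 principal components and resolution 0.3. Lcn2 and the 55 genes of 5 lists were left out of the variable genes. A cluster was named from its marker list if at least 3 markers were detected and its 10 leading genes held more of its own markers than of another population. Lcn2 and the lists were chosen with earlier results of these data known.

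Levels are summed UMIs scaled to 1e+06 (CPM) with exact Poisson intervals, ratios have exact conditional binomial intervals, and shares have Clopper-Pearson intervals, all at 95% and for counting error only. With 1 library per group no test was made. Cells were thinned to 1000 UMIs, leaving out shallower cells, to compare shares. The genes named are Lcn2, the 8 with the most similar pattern (1 of them is not reported here), Havcr1, S100a8, S100a9, Lrp2, Cubn and Slc22a17, and the 2 highest and 2 lowest measured members of each list by ratio in the TAL. Genes that mark populations, and Spp1, Krt8, Krt18, Fxyd4, Hsd11b2, Aqp2, Calb1, Slc12a1 and Umod in the comparison by Lcn2 count, were chosen after their values had been seen. Mmp9 was added in the same way. Subsets were set per cell by at least 2 UMIs of their markers and more than 2 times those of the other subset, and cells were split by a marker gate of 3 UMIs.

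Scrublet (scanpy 1.11.5) called 0 cells as doublets and so did not work here. The 8% of cells with the highest scores were left out as an alternative, added after the data were seen. Sums, intervals and figures came from Python 3.11.15 with pandas 2.3.3, matplotlib 3.10.9, SciPy 1.17.1 and NumPy 2.4.6, and the calculations were checked on simulated data. The alternatives changed the limits on cells, the integration, the resolution, the genes left out, the doublets, the gate, the unit, the depth, and cells with neutrophil RNA or the most Lcn2.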

Additional observations from a re-analysis of the deposited data

Results flagged for a closer look

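Neutrophils were the only population whose Lcn2 level was lower in the ischemia library, with a ratio of 0.828 (0.722 to 0.954), while the other 12 populations had ratios above 1. The control value rests on 19 cells, and with 1 library per condition the difference between populations was not tested.

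Lcn2 was also counted in the barcodes that the filters removed. The 2141 removed barcodes of the ischemia library had 974 CPM on 13850 Lcn2 UMIs, against 21.9 CPM in the 2524 removed barcodes of the control library. Nearly all of them exceeded the limit on mitochondrial UMIs, and what these barcodes hold was not tested.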

How the results depend on the processing

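No ratio fell below 1 in any of the 6 nephron populations under the 11 alternatives run. The ratio moved beyond its counting interval in 32 cases and stayed within it in 32. With at most 25% mitochondrial UMIs it was 10.2 in PT, 9.26 in TAL, 34.7 in DCT-CNT and 5.83 in CD-PC, and IC had no cluster. With at least 1000 UMIs per cell it was 13.2 in TAL and 5.41 in CD-PC. Without integration it was 6.94 in PT, 13.5 in TAL, 10.3 in DCT-CNT and 16.5 in IC, and CD-PC had no cluster. At resolution 0.6 it was 13.0 in TAL and 48.1 in IC, where type A cells joined. With no genes left out of the variable genes it was 6.94 in PT. With a marker gate in place of clusters it was 8.92 in PT, 2.28 in thin limb, 13.9 in TAL, 64.0 in DCT-CNT, 4.83 in CD-PC and 62.9 in IC. As the mean of each cell's CPM it was 10.7 in PT, 4.74 in thin limb, 11.6 in TAL, 38.3 in DCT-CNT and 5.99 in CD-PC. In thinned cells it was 12.5 in PT, 4.20 in thin limb and 2.10 in IC. Without the 1% of cells with the most Lcn2 it was 8.89 in PT, 5.74 in thin limb, 15.1 in TAL and 310 in DCT-CNT. Without the 8% highest doublet scores it was 6.82 in PT. Of the 8 most similar genes, 5 remained without neutrophils. The causes of these changes were not tested. Scrublet's own calls removed 0 cells, so that alternative equals the values reported. No paired analysis was possible because each condition had 1 library, and for the same reason no replicate could be left out. Of the shares of all Lcn2 UMIs, 21 moved and 3 did not under the marker gate and the 25% mitochondrial limit. The level of the CD-PC cluster in ischemia ranged from 3736 to 13727 CPM and was below that of the TAL under 4 alternatives. The 12 control UMIs of IC limit its ratio, and free RNA limits what can be said of PT.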
